A study of Homo sapiens with 24 samples.

Results

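Cholesterol and fatty acid synthesis genes were followed here through a short treatment of HT29 cells, an established human colon adenocarcinoma line. The set holds 30 named genes out of 36337 gene names on the array, and its members were found by their exact name among the probes that are not controls. The set is defined by the names of the genes, and these were chosen with earlier results of these data known. All 30 passed the filter on dim probes and were among the 20686 genes tested. By role, 7 act in the mevalonate and isoprenoid steps, 9 in the squalene and sterol steps, 4 are regulators or a sterol carrier, 7 act in fatty acid synthesis, elongation and desaturation, 1 acts in glycerolipid synthesis and 2 export cholesterol.

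The study asked how metabolites of dairy propionibacteria act on these cells together with TRAIL, a death ligand that triggers apoptosis through receptors at the cell surface. RNA was taken after 6 h and hybridised to 1-colour arrays, 24 in all, with 4 arrays in each of 6 groups. NT cells were not treated. C3/C2 cells received propionate at 30 mM and acetate at 15 mM, and SN cells received a propionibacterial culture supernatant diluted to 1/2, in which these acids are present in the same amounts. TRAIL cells received TRAIL at 100 ng/ml with an anti-Flag antibody at 2 µg/ml, and the TRAIL+C3/C2 and TRAIL+SN cells received TRAIL together with the acids or with the supernatant. All groups are the same line, which was cultured in DMEM with serum, so each value describes this 1 line and no normal epithelium. SN and TRAIL+SN cells had the culture supernatant as part of their medium. Whether medium and serum were otherwise equal across the groups is not given in the sources used here.

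As background, cholesterol is built from acetyl-CoA through mevalonate, isoprenoid units, squalene and a series of sterols, while fatty acids are built from the same precursor by carboxylation and repeated extension. Both routes are governed by the SREBP transcription factors, which are held in the endoplasmic reticulum by INSIG proteins when sterols are plentiful and released to the nucleus when they are scarce. Sterol-activated nuclear receptors of the LXR type act on the opposite side, and the exporters ABCA1 and ABCG1 are among their best known targets.

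The arrays lay on 4 slides. Slides 1 and 2 held NT and C3/C2, with replicate 1 of each on slide 1. Slide 3 held SN and TRAIL, and slide 4 held both co-treatments. Slide and treatment therefore cannot be told apart when groups on different slides are compared. This holds for SN, TRAIL and both co-treatments against NT, for SN against C3/C2, and for each co-treatment against a single treatment. It also holds for the interactions, which join groups of several slides. NT and C3/C2 shared their slides, and SN against TRAIL and TRAIL+SN against TRAIL+C3/C2 were each measured within 1 slide. Between 49.8% and 57.8% of probes were well above background on an array, the correlation between arrays of a group ran from 0.993 to 0.998, and no member spot was saturated. The 75th percentile of the signal, used to scale each array, had a group median of 883 intensity units in NT and 503 in TRAIL+C3/C2. Of 11 colon epithelium markers, 11 were well above background on all 24 arrays. Of 6 fibroblast markers, LUM was well above background on all 24 arrays, COL1A1 on 16 and PDGFRB on 1, and COL1A2, COL3A1 and DCN on none. Of 4 endothelial markers, PECAM1, VWF and CDH5 were above it on all 24 and KDR on none, and of 6 leukocyte markers PTPRC and CD14 were above it on all 24 and the other 4 on 10 to 20. For each list the scaled intensities of all probes were summed and the sum taken to log2, so the brightest probes weigh most. In NT the mean log2 level of CD14 was 0.75, and no other leukocyte marker tested lay above -4.05. Of the fibroblast markers tested, LUM had -2.85 and COL1A1 -6.54. The leukocyte sum lay between 0.69 and 1.09 in NT, 0.75 and 1.23 in TRAIL and 1.68 and 1.97 in C3/C2. It lay between 1.88 and 2.25 in SN, 1.70 and 2.07 in TRAIL+C3/C2 and 1.86 and 2.27 in TRAIL+SN. The fibroblast list moved the same way, from -2.75 to -2.24 in NT to -0.60 to -0.52 in C3/C2 and -0.21 to 0.09 in SN, and with the co-treatments to -0.85 to -0.46 and -0.20 to 0.43, while TRAIL lay at -2.96 to -2.42. The endothelial list lay at -1.93 to -1.56 in NT, -1.74 to -1.50 in TRAIL, -0.99 to -0.68 in C3/C2, -1.55 to -1.12 in SN, and at -0.90 to -0.70 and -1.33 to -1.02 with the co-treatments. The epithelial list lay between 10.2 and 10.5 in NT, C3/C2 and SN and between 10.7 and 10.9 in the 3 groups with TRAIL, without overlap. The part of these shifts in the results below was not tested. In extracts of whole cultures, fewer cells of a kind and less RNA per cell cannot be told apart.

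Levels are given as log2 of the signal relative to the 75th percentile of the same array, and differences as log2 differences with their standard error (SE) from 1 linear model over the 24 arrays. A level compares arrays for 1 probe and says nothing of 1 gene against another. A member is said to have risen or fallen where its p-value, adjusted over all genes tested, was under 0.05. It is said to be called where the difference was also at least 2-fold.

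Most members moved with the acids and with the supernatant, but few moved by 2-fold. C3/C2 raised 16 of 30 members and lowered 6, against 35.3% and 27.7% of all genes tested. Of these, 1 was called higher and 0 lower, where the shares over all genes were 13.5% and 6.17%. SN raised 20 and lowered 6, against 35.1% and 34.2% of all genes, and 3 were called higher and 1 lower, against 14.3% and 9.74%. The members called were ABCG1 in C3/C2, and ABCG1, INSIG1, LPIN1 and, downward, ABCA1 in SN. The share of members raised by SN was above that of all genes, while the share called at 2-fold was not.

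TRAIL alone moved fewer members, and fewer of all genes tested as well. It raised 8 and lowered 1, against 20.4% and 13.1% of all genes, and 0 members were called in either direction, against 0.749% called higher and 2.18% called lower over all genes. The members' differences with TRAIL ran from -0.34 to 0.53, so none reached 2-fold and an unadjusted p could not change that count. TRAIL+C3/C2 raised 21 and lowered 6, against 39.9% and 29.5%, with 3 called higher and 0 lower, against 16.3% and 7.93%. TRAIL+SN raised 21 and lowered 5, against 37.4% and 32.7%, with 3 called higher and 1 lower, against 16.1% and 10.1%. The members called were ABCG1, INSIG1 and SREBF1 in TRAIL+C3/C2 and ABCG1, INSIG1, LPIN1 and ABCA1 in TRAIL+SN. These 5 comparisons share the NT arrays, so their values stand side by side and are not independent of each other. The median log2 difference of the 30 members was 0.22 in C3/C2, 0.38 in SN, 0.06 in TRAIL, 0.39 in TRAIL+C3/C2 and 0.33 in TRAIL+SN. Over all genes the medians were 0.08, -0.02, 0.03, 0.10 and 0.04 in the same order.

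**Figure D1:**
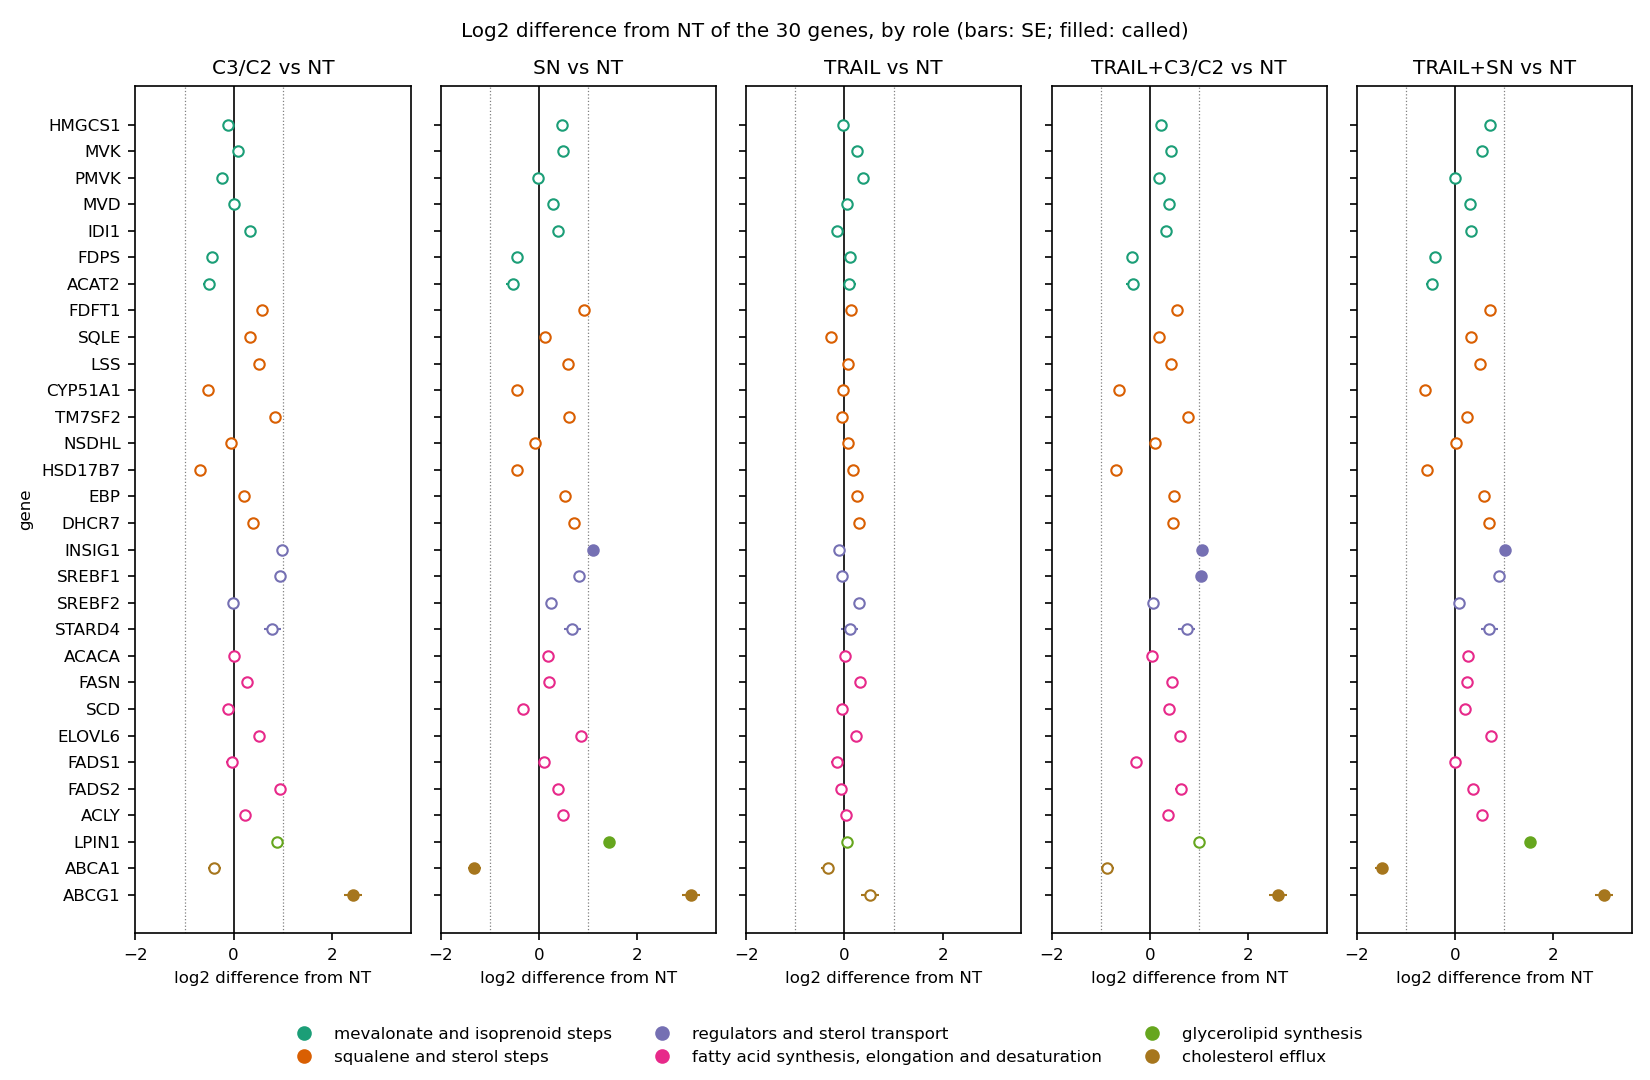
Log2 difference from NT (x axis, with SE bars) of each of the 30 members (y axis, grouped by role) in the 5 treated groups, with filled points for members called at 2-fold and adjusted p under 0.05. ABCG1 lies farthest to the right in the 4 groups that received acids or supernatant, at 2.43 to 3.09, and ABCA1 lies farthest to the left in SN and TRAIL+SN, at -1.32 and -1.49.

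The scale of the arrays moves these counts, as the plot of medians by processing shows. Centring each array on its median shifted the median of all genes to -0.22 in C3/C2, -0.15 in SN, 0.13 in TRAIL, -0.25 in TRAIL+C3/C2 and -0.16 in TRAIL+SN, and the table the authors deposited gave the same values as this centring. Scaling on the spike-in probes shifted it to -0.63 in TRAIL+C3/C2 and -0.43 in TRAIL+SN. Relative to the median of all genes, 17 of 30 members lay above it in C3/C2 and 22 in SN under the percentile, the array median and the spike-in scaling. In TRAIL+C3/C2 and TRAIL+SN these scalings gave 22 in each. Each of them shifts all genes of an array by the same amount, so these counts could not differ between them. Quantile normalization gave 19 in C3/C2 and 22 in SN, TRAIL+C3/C2 and TRAIL+SN. Normexp background correction gave 17 in C3/C2, 22 in SN, 17 in TRAIL+C3/C2 and 15 in TRAIL+SN.

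**Figure D2:**
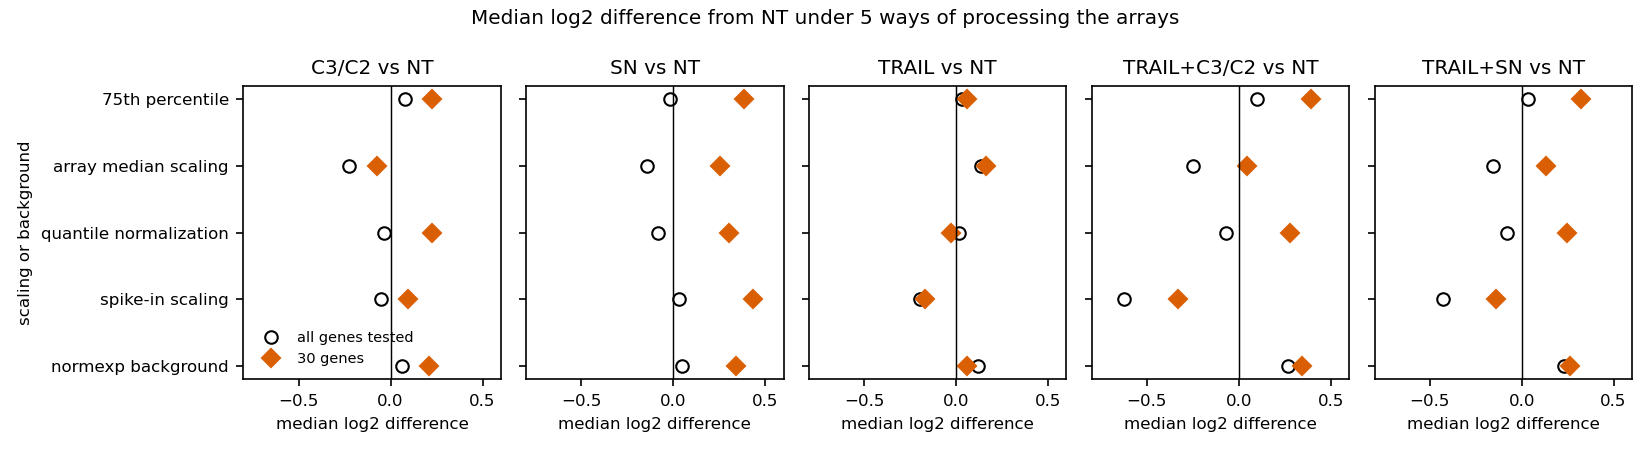
Median log2 difference from NT (x axis) over all genes tested and over the 30 members under each processing (y axis), for the 5 treated groups. The members lie above the genes as a whole in SN, TRAIL+C3/C2 and TRAIL+SN under each processing drawn, at 0.43 against 0.03 in SN and -0.33 against -0.63 in TRAIL+C3/C2 with spike-in scaling, while in TRAIL they lie below them under quantile normalization and normexp. By construction, the gap between members and all genes is the same under the percentile, array median and spike-in scaling.

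Among the regulators, INSIG1 and SREBF1 rose wherever the acids or the supernatant were present. INSIG1 encodes an endoplasmic reticulum protein that retains the SREBP escort factor, and is itself an SREBP target. SREBF1 encodes the SREBP protein best known for fatty acid synthesis, and SREBF2 the one best known for cholesterol synthesis. STARD4 encodes a soluble sterol carrier. The bases just before the transcription start of 4 members that differ in response, and of MVK, are shown because the motifs of these factors can be read in them. They are the 250 bases upstream of the start, 5′ to 3′ on the gene's strand, from RefSeq for GRCh38.p14. The windows are those of INSIG1 (chr7:155297628-155297877, + strand), SREBF1 (chr17:17836987-17837236, - strand), SREBF2 (chr22:41832855-41833104, + strand), ABCA1 (chr9:104928156-104928405, - strand) and MVK (chr12:109573544-109573793, + strand). Capitals mark every match to the sterol regulatory element TCACNCCAC, the NF-Y box CCAAT, the E-box CACGTG or the Sp1 box GGGCGG, on either strand, and neighbouring Sp1 boxes can overlap.
INSIG1: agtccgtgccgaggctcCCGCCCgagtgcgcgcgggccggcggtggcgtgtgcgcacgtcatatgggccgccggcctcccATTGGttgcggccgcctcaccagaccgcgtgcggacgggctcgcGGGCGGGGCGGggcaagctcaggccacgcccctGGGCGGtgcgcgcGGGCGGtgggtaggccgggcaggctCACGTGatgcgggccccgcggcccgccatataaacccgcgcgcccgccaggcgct
SREBF1: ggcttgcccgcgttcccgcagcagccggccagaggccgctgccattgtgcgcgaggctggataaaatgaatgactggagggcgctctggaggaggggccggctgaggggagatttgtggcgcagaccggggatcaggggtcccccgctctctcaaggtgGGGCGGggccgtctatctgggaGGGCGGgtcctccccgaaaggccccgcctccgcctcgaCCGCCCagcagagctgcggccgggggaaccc
SREBF2: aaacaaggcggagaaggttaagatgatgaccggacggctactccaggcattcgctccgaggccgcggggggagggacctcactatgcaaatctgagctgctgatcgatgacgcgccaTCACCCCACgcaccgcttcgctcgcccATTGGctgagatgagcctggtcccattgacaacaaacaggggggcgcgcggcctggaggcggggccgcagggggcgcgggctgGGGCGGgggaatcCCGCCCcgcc
ABCA1: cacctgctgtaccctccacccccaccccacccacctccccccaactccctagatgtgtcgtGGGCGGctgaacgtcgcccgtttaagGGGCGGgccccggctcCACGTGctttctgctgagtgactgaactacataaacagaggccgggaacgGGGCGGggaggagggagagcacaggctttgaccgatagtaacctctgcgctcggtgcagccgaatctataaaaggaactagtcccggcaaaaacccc
MVK: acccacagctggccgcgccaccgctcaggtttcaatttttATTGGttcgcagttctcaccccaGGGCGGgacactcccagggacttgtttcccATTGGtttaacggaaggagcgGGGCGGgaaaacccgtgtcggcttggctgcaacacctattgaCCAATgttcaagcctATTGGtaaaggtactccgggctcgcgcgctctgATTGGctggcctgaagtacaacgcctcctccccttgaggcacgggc

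The promoter table held 35 windows for 25 of the 30 members, with none for FDFT1, SQLE, FASN, ACAT2 and ABCG1. Over 300 bases, from 250 before to 50 after the start, the sterol regulatory element stood in 1 of the 35 windows (2.86%), that of SREBF2, and in 1.13% of the 35116 windows of all genes. The NF-Y box stood in 21 windows (60%), against 34.6% of all, and the Sp1 box in 30 (85.7%), against 45%. The E-box stood in 3 (8.57%), against 7.26%, in INSIG1, ABCA1 and LSS. In the sequences printed, MVK carries 5 NF-Y boxes and INSIG1 and SREBF2 carry 1 each, while SREBF1 and ABCA1 carry none. A match describes letters and not a bound site, and a window without one says nothing of a factor.

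The INSIG1 probe (chr7:155101843-155101902, hg19, + strand) read 3.21, 3.03, 3.24 and 3.15 on the 4 NT arrays and 2.95, 2.92, 3.22 and 3.10 with TRAIL. The levels were 4.00, 4.02, 4.28 and 4.29 with C3/C2 and 4.17, 4.23, 4.35 and 4.26 with SN. They were 4.30, 4.24, 4.15 and 4.17 with TRAIL+C3/C2 and 4.18, 4.19, 4.19 and 4.17 with TRAIL+SN. Every array with acids or supernatant thus stood above every array without them. The difference from NT was 0.99 ± 0.08 (SE) with C3/C2, 1.99-fold with adjusted p = 2.6e-10 and just short of the 2-fold call, and 1.10 ± 0.08 with SN, 2.14-fold with adjusted p = 4.1e-11. With TRAIL it was -0.11 ± 0.08 and did not pass the test. The calls of INSIG1 in SN, TRAIL+C3/C2 and TRAIL+SN were lost under array median centring, at 0.97, 0.71 and 0.83, although the rise itself passed the test in each. With spike-in scaling the co-treatment differences were 0.33 and 0.56, and with quantile normalization 0.93 and 0.94, and each passed the test without a call. In C3/C2 leaving out NT replicate 1 gave a call at 1.01. Leaving out NT replicate 3 gave 1.02, C3/C2 replicate 1 gave 1.04 and C3/C2 replicate 2 gave 1.03, and without NT replicate 2 the TRAIL+SN call was lost at 0.98.

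The SREBF1 probe (chr17:17715419-17715478, hg19, - strand) read 5.28, 5.34, 5.21 and 5.25 in NT and 5.20, 5.34, 5.13 and 5.24 with TRAIL. The levels were 6.17, 6.21, 6.20 and 6.25 with C3/C2 and 6.12, 6.28, 5.93 and 5.98 with SN. They were 6.44, 6.42, 6.23 and 6.16 with TRAIL+C3/C2 and 6.35, 6.19, 6.07 and 6.03 with TRAIL+SN. Here too the arrays without acids or supernatant lay below all others. The acids raised it by 0.94 ± 0.08 alone and by 1.04 together with TRAIL, and the supernatant by 0.80 alone and by 0.89 together with TRAIL. Only the value in TRAIL+C3/C2, 2.06-fold with adjusted p = 3.1e-10, reached the 2-fold call. That rise was 0.32 and missed the test, with adjusted p = 0.0532, under spike-in scaling, and its call was also lost at 0.70 under array median centring, 0.87 under quantile normalization, 0.96 with normexp and 0.74 with the mean of both probes. The other SREBF1 probe gave smaller differences, 0.20 and 0.29 for C3/C2 and SN alone and 0.43 and 0.40 when TRAIL was added to them. SREBF2 rose with SN, by 0.25 ± 0.06, and with TRAIL, by 0.30 ± 0.06, while the differences with C3/C2, TRAIL+C3/C2 and TRAIL+SN, -0.02, 0.06 and 0.08, did not pass. STARD4 rose by 0.78 ± 0.17 under the acids and 0.68 under the supernatant, and by 0.75 and 0.70 in the matching co-treatments, with replicates 3 and 4 above replicates 1 and 2 in every group.

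**Figure D3:**
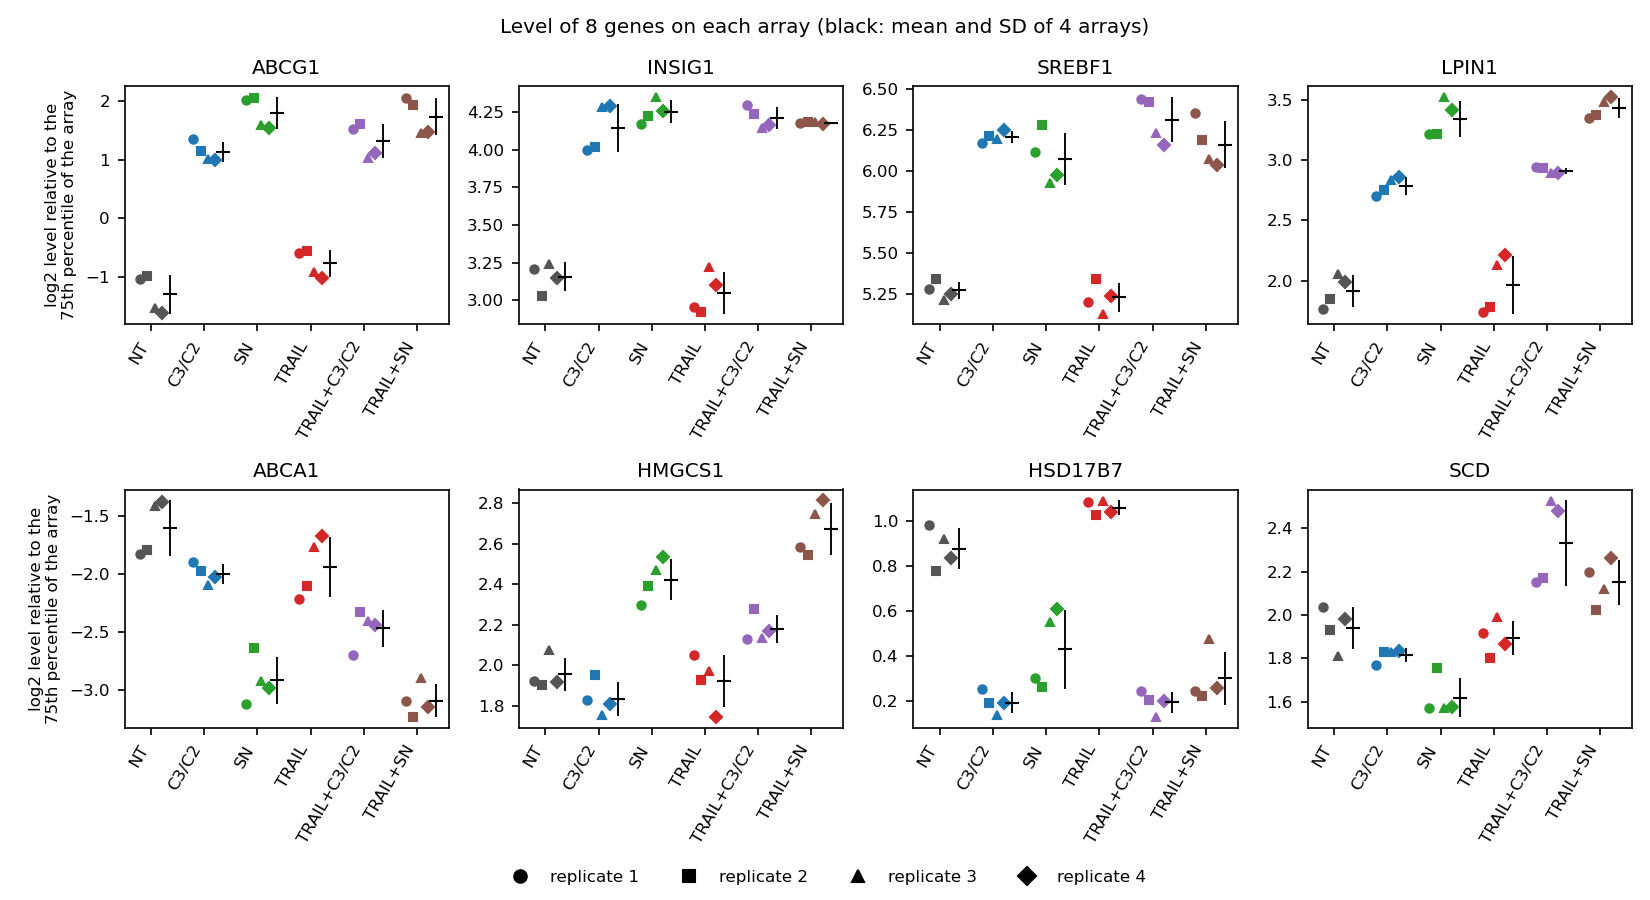
Log2 level against the array's own 75th percentile (y axis) on each of the 24 arrays, by group (x axis), for 8 members, with a bar at each group mean. ABCG1, INSIG1, SREBF1 and LPIN1 stand higher in the 4 groups with acids or supernatant than in NT and TRAIL, and ABCA1 is lowest in SN and TRAIL+SN.

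The cholesterol exporters moved in opposite directions. ABCG1 encodes a transporter that passes cholesterol to mature lipoproteins, and ABCA1 one that passes it to lipid-poor apolipoproteins. The ABCG1 probe (chr21:43716784-43716843, hg19, + strand) read -1.04, -0.98, -1.53 and -1.62 in NT and -0.59, -0.56, -0.91 and -1.01 with TRAIL. The levels were 1.36, 1.15, 1.01 and 1.00 with C3/C2 and 2.02, 2.05, 1.60 and 1.53 with SN. They were 1.53, 1.61, 1.04 and 1.11 with TRAIL+C3/C2 and 2.06, 1.94, 1.46 and 1.47 with TRAIL+SN. The arrays with acids or supernatant lay far above the others, and in each group replicates 1 and 2 lay above replicates 3 and 4. ABCG1 was 5.38-fold higher than NT with C3/C2 (2.43 ± 0.18, adjusted p = 2.1e-10), 8.53-fold with SN (3.09, adjusted p = 3.4e-12), 6.13-fold with TRAIL+C3/C2 (2.62, adjusted p = 5.1e-11) and 8.16-fold with TRAIL+SN (3.03, adjusted p = 4.2e-12). With TRAIL alone it rose 1.44-fold (0.53, adjusted p = 0.032).

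The ABCA1 probe (chr9:107543704-107543763, hg19, - strand) read -1.82, -1.79, -1.41 and -1.38 in NT and -2.21, -2.11, -1.77 and -1.67 with TRAIL. The levels were -1.89, -1.97, -2.10 and -2.02 with C3/C2 and -3.12, -2.64, -2.92 and -2.98 with SN. They were -2.70, -2.32, -2.41 and -2.44 with TRAIL+C3/C2 and -3.09, -3.23, -2.89 and -3.14 with TRAIL+SN. All arrays of SN and of both co-treatments lay below all NT arrays, and those of C3/C2 lay just below them. The differences from NT were -0.40 ± 0.13 with C3/C2 (adjusted p = 0.013), -1.32 with SN (adjusted p = 1.4e-08), -0.87 with TRAIL+C3/C2 (adjusted p = 5.7e-06) and -1.49 with TRAIL+SN (adjusted p = 1.8e-09), that is 2.49-fold lower with SN and 2.81-fold lower with TRAIL+SN. A second ABCA1 probe (chr9:107624012-107624071, hg19) did not show this fall. It was well above background on 11 of 24 arrays, 4 of 4 in C3/C2 but 1 of 4 in NT, and it differed from NT by 1.00 ± 0.34 in C3/C2 and 0.72 in TRAIL+C3/C2, by -0.26 in SN, and by 0.0013 in TRAIL+SN. With the mean of both probes the SN and TRAIL+SN calls were lost, at -0.79 and -0.74, and the C3/C2 difference turned to 0.30. Under normexp background correction the same calls were lost at -0.93 and -0.87.

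LPIN1 encodes a phosphatidate phosphatase that makes the diacylglycerol used for triglycerides and phospholipids. Its probe (chr2:11967107-11967166, hg19, + strand) read 1.77, 1.85, 2.05 and 1.99 in NT and 1.74, 1.78, 2.13 and 2.21 with TRAIL. The levels were 2.70, 2.75, 2.84 and 2.86 with C3/C2 and 3.22, 3.22, 3.53 and 3.41 with SN. They were 2.94, 2.93, 2.89 and 2.89 with TRAIL+C3/C2 and 3.35, 3.38, 3.48 and 3.53 with TRAIL+SN. The groups stood in 3 tiers that did not overlap, with NT and TRAIL lowest, the acids between and the supernatant highest. LPIN1 was 1.83-fold higher than NT with C3/C2 (0.87 ± 0.10, adjusted p = 7e-08), 2.70-fold with SN (1.43, adjusted p = 2.6e-11) and 2.87-fold with TRAIL+SN (1.52, adjusted p = 8.6e-12). With TRAIL+C3/C2 the difference was 1.00 (adjusted p = 7.6e-09), a hair under the 2-fold call, and it was called without TRAIL+C3/C2 replicate 3 (1.01) or 4 (1.01), without NT replicate 3 (1.05) or 4 (1.03), or with slide as a random block (1.00). The other LPIN1 probes gave 0.97 and 0.61 with C3/C2 and 1.69 and 1.02 with SN.

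The mevalonate and isoprenoid steps split into enzymes that were higher and enzymes that were lower. HMGCS1 makes the HMG-CoA that enters the pathway, MVK and PMVK phosphorylate mevalonate, MVD makes isopentenyl diphosphate, IDI1 isomerises it, FDPS joins the units to farnesyl diphosphate, and ACAT2 makes acetoacetyl-CoA. HMGCS1 rose by 0.47 ± 0.07 with SN and 0.72 with TRAIL+SN, but its C3/C2 difference, -0.12, did not pass. MVK rose with SN by 0.50 ± 0.07, with TRAIL by 0.26 and with TRAIL+SN by 0.54, and its C3/C2 difference of 0.08 did not pass. MVD rose by 0.29 ± 0.08 with SN, and IDI1 rose by 0.33 ± 0.09 with C3/C2 and 0.38 with SN. FDPS and ACAT2 fell in all 4 groups with acids or supernatant, FDPS by 0.44 with C3/C2 and 0.44 with SN (SE 0.06) and ACAT2 by 0.51 and 0.54 (SE 0.13). PMVK fell with C3/C2, at -0.23 ± 0.08, and rose with TRAIL, at 0.38. In TRAIL+C3/C2 the rises of HMGCS1 (0.22), MVK (0.44), PMVK (0.19), MVD (0.40) and IDI1 (0.33) all turned negative with spike-in scaling, and those of HMGCS1, PMVK and IDI1 also under array median centring. In TRAIL+SN the rises of MVD (0.30) and IDI1 (0.33) turned negative with spike-in scaling.

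Of the 9 genes of the squalene and sterol steps, C3/C2 raised 6 and lowered 2, against 35.3% and 27.7% of all genes. SN raised 5 and lowered 2, against 35.1% and 34.2%. FDFT1, which makes squalene, rose by 0.57 ± 0.06 with C3/C2 and 0.91 with SN, and LSS, which closes the ring to lanosterol, by 0.52 ± 0.08 and 0.59, with 1.28 and 0.91 at the other LSS probe. TM7SF2, a sterol reductase, read 0.85, 0.80, 1.02 and 1.14 in NT, 1.75, 1.73, 1.81 and 1.86 with C3/C2 and 1.58, 1.66, 1.44 and 1.52 with SN. Those arrays did not overlap, and the differences were 0.84 ± 0.08 with C3/C2 and 0.60 with SN. DHCR7, which completes one branch of the pathway, rose by 0.40 ± 0.07 and 0.71, and EBP, a sterol isomerase, by 0.21 ± 0.08 and 0.53, although the C3/C2 rise of EBP turned to -0.09 under array median centring. SQLE, the monooxygenase that epoxidises squalene, rose by 0.32 ± 0.08 with C3/C2, did not pass with SN (0.12), and fell with TRAIL (-0.27).

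CYP51A1, the lanosterol demethylase, and HSD17B7, a sterol ketoreductase, fell where their neighbours rose. CYP51A1 differed from NT by -0.51 ± 0.08 with C3/C2 and -0.44 with SN. HSD17B7 read 0.98, 0.78, 0.92 and 0.83 in NT, 0.25, 0.19, 0.14 and 0.19 with C3/C2 and 0.30, 0.26, 0.55 and 0.61 with SN. The treated arrays all lay below NT, with differences of -0.68 ± 0.07 and -0.45. The other 4 HSD17B7 probes gave -0.74 to -0.31 with C3/C2 and -0.75 to -0.03 with SN. NSDHL, which removes the carboxyl group at the same stage of the pathway, passed in none of the 5 comparisons, with differences between -0.08 and 0.10. In the co-treatments FDFT1, LSS, EBP and DHCR7 rose by 0.43 to 0.72, SQLE by 0.18 and 0.32 and TM7SF2 by 0.79 and 0.24, while CYP51A1 and HSD17B7 fell by 0.58 to 0.68. With spike-in scaling the TRAIL+C3/C2 rises of FDFT1, SQLE, LSS, EBP and DHCR7 turned negative, at -0.54 to -0.18, as did the TRAIL+SN rises of SQLE and TM7SF2, and the TRAIL+C3/C2 rise of SQLE also turned under array median centring and quantile normalization.

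Of the 7 fatty acid genes, C3/C2 raised 4 and lowered 0, against 35.3% and 27.7% of all genes. SN raised 5 and lowered 1, against 35.1% and 34.2%. ACLY makes cytosolic acetyl-CoA, ACACA carboxylates it, FASN assembles palmitate, ELOVL6 extends it, and SCD, FADS1 and FADS2 place double bonds. ELOVL6 rose by 0.52 ± 0.07 under C3/C2, 0.86 under SN and 0.24 under TRAIL, while its other probe gave 0.37 ± 0.15, 0.18 and -0.11. FADS2 read -2.45, -2.47, -2.71 and -2.01 in NT, -1.43, -1.52, -1.43 and -1.47 with C3/C2 and -1.92, -2.01, -2.05 and -2.08 with SN, so that the NT arrays were the most spread and SN overlapped NT replicate 4 alone. Its differences were 0.95 ± 0.11 with C3/C2 and 0.39 with SN, and without NT replicate 4 the C3/C2 difference was 1.08 and was called. The other FADS2 probe gave 0.93 ± 0.19 with C3/C2 but 1.10 with SN. ACLY rose by 0.24 ± 0.09 and 0.48, FASN by 0.27 ± 0.05 and 0.20, and ACACA only with SN and TRAIL+SN, by 0.19 ± 0.05 and 0.25. The other ACACA probe, well above background on all 24 arrays, did not show this, at -0.05 ± 0.06 with SN and -0.09 with TRAIL+SN, and gave -0.23 with C3/C2 and -0.21 with TRAIL+C3/C2. The C3/C2 rises of FASN and ACLY turned to -0.03 and -0.06 under array median centring. SCD, the stearoyl-CoA desaturase, fell with SN (-0.32 ± 0.08) and rose with TRAIL+C3/C2 (0.39) and TRAIL+SN (0.21), and FADS1 passed in TRAIL+C3/C2 alone, at -0.27 ± 0.12. With spike-in scaling the TRAIL+C3/C2 rises of FASN, SCD, ELOVL6, FADS2 and ACLY and the TRAIL+SN rises of ACACA, FASN, SCD and FADS2 turned negative, and with normexp the FADS1 difference turned to 0.0052.

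The supernatant was then set against the acids it contains. SN and C3/C2 lay on different slides, while TRAIL+SN and TRAIL+C3/C2 lay on 1 slide and share no array with the first pair. SN exceeded C3/C2 in 14 members and lay below it in 4, against 21.7% and 25.7% of all genes, and 0 differed by 2-fold and passed, against 1.28% higher and 4.41% lower. In the presence of TRAIL, 5 members were higher and 3 lower with SN, against 15.9% and 21.7%, and again 0 were called, against 0.977% and 2.56%. The 5 higher ones, HMGCS1, FDFT1, DHCR7, ACACA and LPIN1, were higher in both pairs, 35.7% of the 14 and 100% of the 5. TM7SF2 and ABCA1 were lower in both, 50% of the 4 and 66.7% of the 3.

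HMGCS1 showed the widest gap upward among enzymes of sterol synthesis. It read 1.83, 1.95, 1.75 and 1.81 with C3/C2 and 2.30, 2.39, 2.47 and 2.53 with SN, and 2.13, 2.28, 2.14 and 2.17 with TRAIL+C3/C2 and 2.58, 2.55, 2.75 and 2.82 with TRAIL+SN. The arrays did not overlap in either pair, and the differences were 0.59 (adjusted p = 2e-06) and 0.49 (adjusted p = 2.6e-05). LPIN1 followed at 0.56 (adjusted p = 7.9e-05) and 0.52 (adjusted p = 0.00023). Over all alternatives HMGCS1 stayed between 0.54 and 0.77 in the first pair and 0.45 and 0.75 in the second, and LPIN1 between 0.50 and 0.73 and between 0.49 and 0.78. ABCA1 differed by -0.92 (adjusted p = 8.7e-06) and -0.63 (adjusted p = 0.00078), and TM7SF2 by -0.24 (adjusted p = 0.019) and -0.54 (adjusted p = 1.9e-05). With spike-in scaling the second-pair differences of ABCA1 (adjusted p = 0.112) and TM7SF2 (adjusted p = 0.120) and the first-pair difference of TM7SF2 (adjusted p = 0.768) did not pass. The last also missed the test under array median centring (adjusted p = 0.578), without C3/C2 replicate 4 (adjusted p = 0.0575) and without SN replicate 3 (adjusted p = 0.0661). In the second pair FDFT1 missed the test under 9 of 22 alternatives and DHCR7 and ACACA under 1 each.

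**Figure D4:**
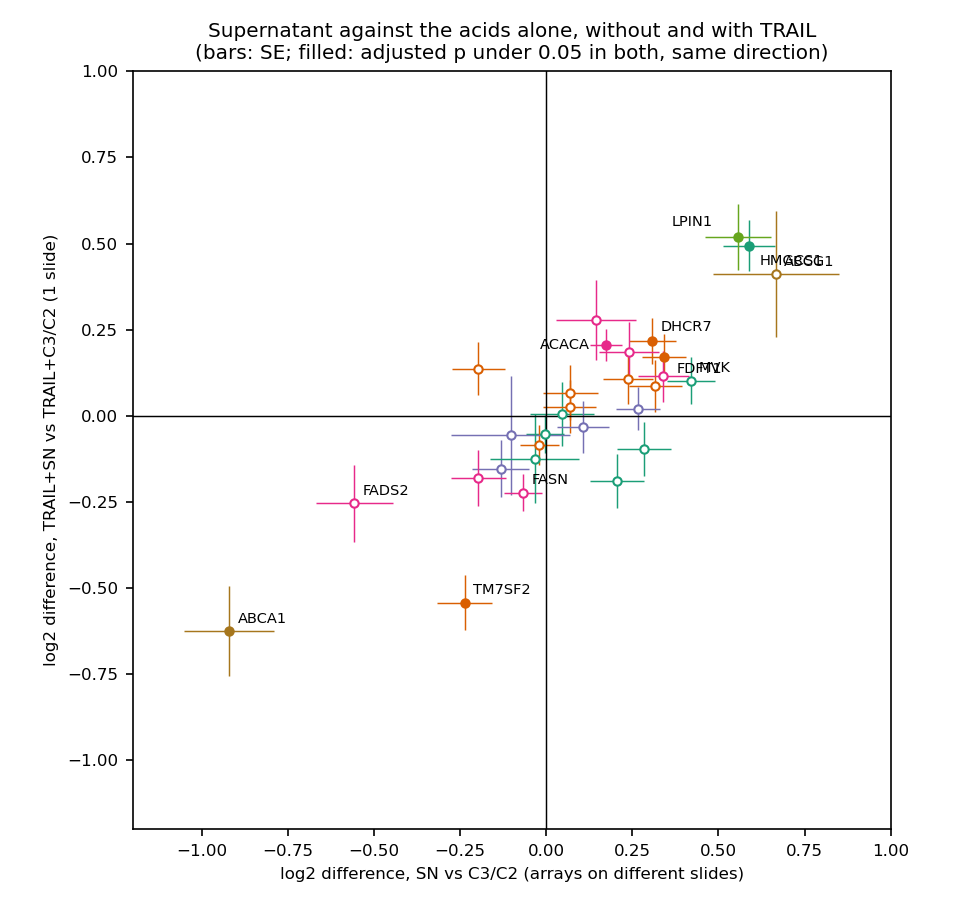
Log2 difference of SN from C3/C2 (x axis) against that of TRAIL+SN from TRAIL+C3/C2 (y axis) for the 30 members, with SE bars. HMGCS1 (0.59 and 0.49) and LPIN1 (0.56 and 0.52) lie at the upper right, ABCA1 (-0.92 and -0.63) at the lower left, and INSIG1 (0.11 and -0.03) near the origin.

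Other members passed in 1 pair. ABCG1 was higher with SN than with C3/C2 by 0.67 (adjusted p = 0.0052) and by 0.41 in the presence of TRAIL (adjusted p = 0.085). FADS2 was lower by 0.56 (-0.56, adjusted p = 0.00034) and gave -0.25 with TRAIL (adjusted p = 0.078). The other FADS2 probe did not lie lower with SN, at 1.10 against 0.93 with C3/C2 and 0.99 against 0.55 in the co-treatments, and with the mean of both probes the first difference missed the test (adjusted p = 0.256). ELOVL6 also missed it with the mean of its probes, at 0.07 (adjusted p = 0.546). MVK (0.42), EBP (0.32), ELOVL6 (0.34), MVD (0.28), SREBF2 (0.27), ACLY (0.24), HSD17B7 (0.24) and PMVK (0.20) passed only without TRAIL, SQLE passed there at -0.20 (adjusted p = 0.04), and FASN passed only with TRAIL, at -0.22 (adjusted p = 0.0026), which turned to 0.04 with spike-in scaling and missed the test under array median centring (adjusted p = 0.541). The differences of PMVK, HSD17B7, ELOVL6, ACLY, SQLE and FADS2 each missed the test under at least 1 alternative, SQLE under 12 of 22. INSIG1 and SREBF1 passed in neither pair. The 95% interval of the INSIG1 difference ran from -0.05 to 0.26 in the first pair and from -0.19 to 0.13 in the second, and that of SREBF1 from -0.30 to 0.04 in the first.

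SN against TRAIL, on slide 3 alone, gave 19 members higher and 8 lower, against 32.5% and 33.9% of all genes, with 3 called higher and 0 lower, against 13.1% and 8%. ABCG1 differed by 2.57 (adjusted p = 7.5e-11), LPIN1 by 1.38 and INSIG1 by 1.21, and these were called. SREBF1 differed by 0.85, FDFT1 by 0.79 and TM7SF2 by 0.65, ABCA1 by -0.98 (adjusted p = 1.2e-06), and ACAT2, HSD17B7 and FDPS by -0.64, -0.63 and -0.56. The rise of ABCG1, INSIG1, LPIN1 and SREBF1 was thus present between groups of 1 slide. ABCA1 passed the 2-fold call without SN replicate 2 (-1.07), without TRAIL replicate 1 (-1.07) or without TRAIL replicate 2 (-1.04).

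Against TRAIL alone, TRAIL+C3/C2 called 3 members higher (ABCG1, INSIG1 and SREBF1) and 0 lower, against 14.8% and 6.16% of all genes. TRAIL+SN called 3 higher (ABCG1, INSIG1 and LPIN1) and ABCA1 lower, against 14.3% and 8.08%. Fewer members differed between a co-treatment and the acids or the supernatant alone. All comparisons of this paragraph set groups of different slides against each other, so slide and treatment cannot be told apart. TRAIL+C3/C2 exceeded C3/C2 in 8 members and lay below it in 2, against 21.3% and 14.1%, with 0 called, against 1.6% and 2.13%. TRAIL+SN exceeded SN in 2 and lay below it in 2, against 12.2% and 7.85%, with 0 called, against 0.909% and 0.164%. SCD was among the higher in both, by 0.52 and 0.53, as was HMGCS1, by 0.34 and 0.25. With spike-in scaling the 8 higher members of TRAIL+C3/C2 against C3/C2 all turned negative (SCD to -0.08), and so did HMGCS1 in TRAIL+SN against SN, at -0.26.

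Departure from additivity was tested as the interaction of TRAIL with each agent on the log2 scale. Each interaction joins groups of different slides, so a slide shift and a departure from additivity cannot be told apart. With C3/C2, 1 member had a positive and 0 a negative interaction, against 1.75% and 1.14% of all genes. With SN, 2 were positive and 7 negative, against 10.9% and 12.2%. None of the 30 reached a 2-fold interaction that passed, in limma's test, with either agent, where 0.498% and 0.164% of all genes did with C3/C2 and 2.76% and 0.334% with SN. SCD was positive with both, at 0.56 ± 0.11 (adjusted p = 0.0077) with C3/C2 and 0.58 ± 0.11 (adjusted p = 0.00115) with SN. It read 2.04, 1.93, 1.81 and 1.98 in NT, 1.92, 1.80, 1.99 and 1.87 with TRAIL, 1.57, 1.75, 1.57 and 1.58 with SN and 2.20, 2.02, 2.12 and 2.26 with TRAIL+SN. SCD was thus lower than NT with SN alone, and the arrays of TRAIL+SN all stood above those of SN. Among the members that passed, SREBF2 had the most negative interaction with SN, -0.47 ± 0.09 (adjusted p = 0.000795), while its differences from NT in the co-treatments were 0.06 and 0.08. Both SCD interactions missed the test with spike-in scaling, at adjusted p = 0.386 with C3/C2 and 0.224 with SN, and that with C3/C2 also under array median centring, at adjusted p = 0.0863.

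A wider list of genes of the same pathways, 56 on the array of which 50 were tested, set the members in context. C3/C2 called 8 higher and 1 lower, against 13.5% and 6.17% of all genes tested. SN called 11 higher and 1 lower, against 14.3% and 9.74%, and TRAIL 0 and 0, against 0.749% and 2.18%. TRAIL+C3/C2 called 7 higher and 0 lower, against 16.3% and 7.93%. TRAIL+SN called 9 higher and 1 lower, against 16.1% and 10.1%. The median differences of the 50 genes were 0.29, 0.49, 0.06, 0.21 and 0.37 in the same order. MLXIPL, which encodes the carbohydrate-responsive factor ChREBP, read -2.99, -3.11, -2.53 and -2.59 in NT, 1.13, 1.53, 1.20 and 1.45 with C3/C2 and 1.89, 1.76, 1.39 and 1.79 with SN. No array with acids came near those without, and the differences were 4.13 ± 0.20 with C3/C2 (adjusted p = 1.4e-13) and 4.51 with SN (adjusted p = 2.5e-14). SOAT1, which esterifies cholesterol for storage, rose by 2.22 ± 0.13 with C3/C2 and 2.49 with SN. ACSS2, which activates acetate, rose by 1.32 and 1.37, FADS3 by 1.19 and 1.38, NPC1, a lysosomal cholesterol exporter, by 1.09 and 1.65, and LPCAT3, a phospholipid acyltransferase, by 1.07 and 1.15. Under array median centring the C3/C2 calls of FADS3 (0.89), NPC1 (0.79) and LPCAT3 (0.77) were lost, and those of NPC1 (0.95) and LPCAT3 (0.94) also with spike-in scaling. NR1H2, which encodes the LXR beta receptor, fell, at -1.21 ± 0.09 in C3/C2 and -0.85 in TRAIL+C3/C2, and at -0.96 in SN and -1.24 in TRAIL+SN, and it rose by 0.38 under TRAIL alone.

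The supernatant and the acids also differed in INSIG2 and ACSL3. INSIG2, the second INSIG gene, read 0.91, 0.83, 0.84 and 0.76 in NT, 2.50, 2.51, 2.54 and 2.62 with C3/C2 and 1.73, 1.72, 1.86 and 1.86 with SN. The groups did not overlap and SN lay between. INSIG2 rose by 1.71 ± 0.06 with C3/C2 and 0.95 with SN, the difference of SN from C3/C2 being -0.75 (adjusted p = 8e-09) and that of TRAIL+SN from TRAIL+C3/C2 -0.73 (adjusted p = 1.7e-08). ACSL3, which activates long-chain fatty acids, went the other way. Its levels were 2.04, 2.16, 2.07 and 1.97 in NT, 2.43, 2.51, 2.12 and 2.21 with C3/C2 and 3.32, 3.43, 3.18 and 3.29 with SN. SN was higher than C3/C2 by 0.99 ± 0.11 (adjusted p = 2.6e-07) and TRAIL+SN than TRAIL+C3/C2 by 0.94 (adjusted p = 7.8e-07), while its C3/C2 rise of 0.26 turned to -0.04 under array median centring. NPC1L1, SCAP and ACSL1 were called higher with SN, at 1.14, 1.13 and 1.20, and LPIN3 lower, at -1.06. The NPC1L1 call was lost with normexp (0.87) and the mean of its probes (0.59), and the SCAP call under array median centring, at 0.997.

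**Figure D5:**
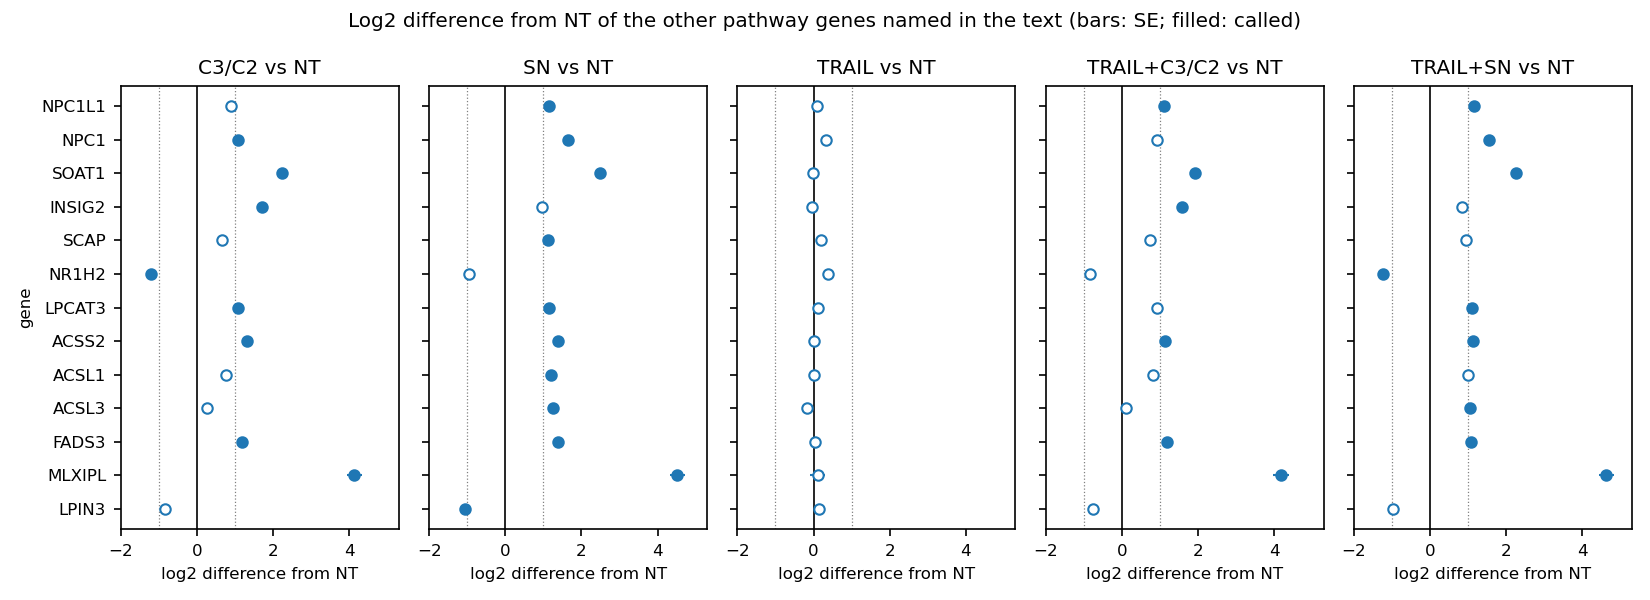
Log2 difference from NT (x axis, with SE bars) of 13 further genes of the same pathways (y axis) in the 5 treated groups, with filled points for genes called. MLXIPL stands apart at 4.13 to 4.62 in the 4 groups with acids or supernatant, and INSIG2 is higher with C3/C2 (1.71) than with SN (0.95). With TRAIL alone no gene drawn is called, and NR1H2 and NPC1 lie farthest above 0.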

How the data were processed

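RNA of 24 HT29 samples, 4 in each of 6 groups, was labelled with Cy3 and hybridised to Agilent 1-colour arrays. The authors deposited, for each array, the processed intensity of every spot from Agilent Feature Extraction 10.7.3.1, along with a table of scaled intensities whose 24 flag columns were not used. Control spots and outlier spots were left out, intensities were divided by the 75th percentile of the array and taken to log2, and spots of a probe were averaged. Probes passed where any 1 of the groups had all 4 of its arrays well above background, which left 27953 of 50599 probes. Of several probes for a gene, the one with the highest mean over all arrays was taken, and every probe of a member was examined (42 probes, all kept). Probe positions are those of the array files (hg19), and promoter windows are RefSeq's for GRCh38.p14.

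Group means were fitted over all 24 arrays with limma 3.58.1 in R 4.3.3 (18 residual degrees of freedom, median SE 0.108 in log2 units), with Benjamini-Hochberg adjustment over 20686 genes. The number of arrays limits the precision. The R packages statmod 1.5.0 and data.table (version 1.17.8), Python 3.11.15 and matplotlib 3.10.9 were also used, and the fit was tested on simulated data. The methods' own software (Rosetta Resolver) was not run, but its 2-fold threshold was kept. The alternatives were array median, quantile and spike-in scaling, normexp with offset 50, the scaled values the authors deposited, other filters, the mean of a gene's probes, other thresholds, slide and replicate blocks, only the groups compared, and leaving out each array.

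The members and the gene lists were chosen with earlier results of these data known. All members are named, those called against NT in full, and of the wider list genes called against NT may be named. 1 gene of that list, called higher in 4 groups, is counted but not reported here. The methods speak of independent experiments done in duplicate, and which arrays share an experiment is not given in the sources used here. The p-values treat the 4 arrays as separate and may in part measure technical spread. In 12 of 15 pairs of groups every correlation between the deviations of same-numbered arrays was over 0.1, with a range from 0.062 to 0.475 over all pairs. The other pairs were NT with TRAIL+SN and TRAIL with either co-treatment.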

Additional observations from a re-analysis of the deposited data

Results flagged for a closer look

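In 8 of 180 sets of 4 arrays (4.44%), 1 array lay far from the other 3, where chance alone marks about 1 set in 20. The gap to the nearest array, as a share of the range of the set, was 0.833 for FASN in TRAIL replicate 3 (level 4.80, next 4.72) and 0.877 for FASN in TRAIL+SN replicate 2 (4.56, next 4.67). It was 0.908 for FDPS in SN replicate 4, 0.898 for HMGCS1 in NT replicate 3, 0.851 for HSD17B7 in TRAIL+SN replicate 3 and 0.883 for NSDHL in SN replicate 1. For SCD it was 0.944 in C3/C2 replicate 1 and 0.969 in SN replicate 2, the latter at 1.75 with the next array at 1.58.

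The interaction of TRAIL with the acids or the supernatant passed the test in limma in 9 members. It joins groups of different slides, so slide and treatment cannot be told apart in it. SCD had an interaction of 0.56 with C3/C2 (adjusted p = 0.0077) and 0.58 with SN (adjusted p = 0.00115), and SQLE 0.47 with SN (adjusted p = 0.00409). The SN interaction was negative for SREBF2 (-0.47, adjusted p = 0.000795), ELOVL6 (-0.36, adjusted p = 0.0155), PMVK (-0.35, adjusted p = 0.0274), DHCR7 (-0.33, adjusted p = 0.0148), FDFT1 (-0.32, adjusted p = 0.0138), HSD17B7 (-0.31, adjusted p = 0.0334) and FASN (-0.29, adjusted p = 0.00942). Of these, SREBF2, FDFT1, DHCR7 and FASN passed the test under all 30 alternatives, while HSD17B7 passed under 16 and PMVK under 20. None of the alternatives could remove a slide shift shared by whole groups. SQLE missed it under array median centring and in the deposited table (adjusted p = 0.172) and with spike-in scaling (adjusted p = 0.517), and ELOVL6 with the mean of its probes (-0.10, adjusted p = 0.66).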

How the results depend on the processing

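Counts of members called and differences of single genes were recomputed under each alternative, and the omission of slide 1 was chosen after seeing the data. Counts within 1.5 times of those reported are not repeated, such as the 2 higher in TRAIL+SN under array median, quantile or spike-in scaling and in SN and SN against TRAIL under the first, INSIG1 being lost. Array median centring and the deposited table gave the same counts. With TRAIL+C3/C2 against NT, 1 member was called higher and 2 lower. SN against TRAIL had 1 lower, TRAIL+C3/C2 against TRAIL 1 higher and 2 lower, and TRAIL+SN against TRAIL 2 lower. Quantile normalization gave 1 higher and 1 lower in TRAIL+C3/C2 and 1 lower in SN against TRAIL. Spike-in scaling gave 1 higher and 5 lower in TRAIL+C3/C2, 3 lower in TRAIL+SN, 5 higher in SN against TRAIL, 1 higher and 3 lower in TRAIL+C3/C2 against TRAIL, and 1 lower in TRAIL+C3/C2 against C3/C2. With this scaling the median difference of all genes from NT was -0.63 in TRAIL+C3/C2 and -0.43 in TRAIL+SN. The share of all genes called was computed for the main processing alone, so counts under other processing have no such share beside them. Normexp gave 2 higher in C3/C2 and 0 lower in SN, TRAIL+SN and TRAIL+SN against TRAIL. The mean of a gene's probes gave 0 lower in these last 3 and 1 lower in SN against C3/C2. Within slide 2, and without slide 1, 2 were higher in C3/C2, INSIG1 being added at 1.06. With no minimum fold the counts higher and lower were 16 and 6 in C3/C2 and 20 and 6 in SN. They were 8 and 1 in TRAIL, 21 and 6 in TRAIL+C3/C2 and 21 and 5 in TRAIL+SN. SN against C3/C2 gave 14 and 4, SN against TRAIL 19 and 8, and TRAIL+SN against TRAIL+C3/C2 5 and 3. TRAIL+C3/C2 against C3/C2 gave 8 and 2, and TRAIL+SN against SN 2 and 2. The interactions gave 1 and 0 with C3/C2 and 2 and 7 with SN. Each co-treatment against TRAIL gave 20 and 7. Of the 20686 genes tested, 7712 were higher and 5874 lower in TRAIL+C3/C2 against TRAIL. In TRAIL+SN against TRAIL 7364 were higher and 6544 lower.

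Leaving out 1 array gave 1 to 2 higher in C3/C2, 3 to 4 in TRAIL+C3/C2 and in TRAIL+C3/C2 against TRAIL, 2 to 3 in TRAIL+SN, and 0 to 1 lower in SN against C3/C2 (1 without SN replicate 2, ABCA1 at -1.01) and in SN against TRAIL. With replicate number as a block, the counts of members called stayed at 1 higher in C3/C2, 3 higher and 1 lower in SN and in TRAIL+SN, and 3 higher in TRAIL+C3/C2, and the block changed none of the 430 calls recomputed. Each replicate number occurs once in every group, so this block could alter the SE but not a difference or its direction. The slide correlation was 0.026 as a random block. It is estimated after the group means are removed, so it cannot measure a slide shift shared by whole groups.

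Of 10028 values recomputed, 499 changed sign, and in 57 of these the difference had passed the test. The 10028 include values that had not passed and settings that change only the threshold, which could not change a sign. Spike-in scaling gave 36 of the 57, among 430 values. Under array median centring, and equally in the deposited table, C3/C2 gave EBP -0.091, FASN -0.030, ACLY -0.061 and ACSL3 -0.039, TRAIL+C3/C2 gave HMGCS1 -0.12, PMVK -0.15, IDI1 -0.021 and SQLE -0.16, and SN against TRAIL gave ACACA -0.054. Quantile normalization gave SQLE -0.041 in TRAIL+C3/C2, normexp FADS1 0.0052 there, and the mean of probes ABCA1 0.30 in C3/C2. With spike-in scaling SCAP was -0.037 in TRAIL. TRAIL+C3/C2 then gave HMGCS1 -0.50, MVK -0.29, PMVK -0.53, MVD -0.33, IDI1 -0.40, FDFT1 -0.18, SQLE -0.54, LSS -0.30, EBP -0.23, DHCR7 -0.26, FASN -0.27, SCD -0.33, ELOVL6 -0.11, FADS2 -0.10 and ACLY -0.36. TRAIL+SN gave MVD -0.16, IDI1 -0.13, SQLE -0.15, TM7SF2 -0.22, ACACA -0.21, FASN -0.23, SCD -0.26 and FADS2 -0.093. SN against TRAIL gave NSDHL 0.12 and SCD 0.0013, and TRAIL+SN against TRAIL+C3/C2 gave FASN 0.036. TRAIL+C3/C2 against C3/C2 gave HMGCS1 -0.25, MVK -0.24, PMVK -0.17, MVD -0.20, NSDHL -0.43, EBP -0.31, FASN -0.41 and SCD -0.079, and TRAIL+SN against SN gave HMGCS1 -0.26. The cause was not tested. By construction, spike-in scaling keeps differences in total signal between arrays that the other scalings remove.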
